A study of Rattus norvegicus with 6 samples.

Results

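The genes described here are 49 genes for lysosomal hydrolases, lysosomal membrane proteins and the vacuolar proton pump, among 16849 genes in the deposited count table. They were chosen by symbol for what their products do, with earlier results of these data known, and the table held all 49. They comprise 11 proteases, 11 glycan hydrolases, 8 proteins of lipid handling with their cofactors, 6 membrane proteins and 13 subunits or accessory proteins of the pump. RNA was sequenced from RSC96, an immortalised line of rat Schwann cells, the glia of peripheral nerve, labelled wild type in all groups. The cells of 2 groups spent 24 h in a hypoxia model that used medium conditioned by macrophages, 1 group with a piezoelectric material, which turns mechanical strain into charge (PVDF@PDA), and 1 with a non-piezoelectric material (PCL@PDA). The third group is labelled Control, and the labels leave unsaid whether its cells received the medium or the hypoxia, so in a comparison with Control the material, the medium and the hypoxia cannot be told apart. The series gives as its purpose to assess the piezoelectric effect, which is the contrast of PVDF@PDA with PCL@PDA. Each group has 2 libraries, replicate 1 from batch 1 and replicate 3 from batch 3. The libraries called replicate 3 here, after their titles and batch labels, carry the number 2 in their library names and in the deposited tables, and were matched to the tables by library name. In the free-text label of the libraries titled PCL@PDA the other material is named, and titles and treatment labels were followed here. No label says that replicates were separate cultures, so p-values reflect no more than the spread of these samples, possibly a technical one. That spread was estimated mostly across genes and not within each gene.

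Lysosomes are acidic compartments in which hydrolases break down proteins, glycans and lipids delivered by endocytosis, phagocytosis and autophagy. The vacuolar ATPase pumps protons into the lumen, with a cytosolic V1 sector that hydrolyses ATP and a membrane V0 sector that carries the protons, and most lysosomal enzymes work best at the acid pH it sets. Schwann cells use this pathway to clear myelin after nerve injury. Many lysosomal genes share short palindromic E-boxes in their promoters, the sites through which the transcription factors TFEB, TFE3 and MITF are known to act.

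Against Control, both materials came with higher transcript levels of the proteases Ctsb, Ctsd, Ctsl and Tpp1, the membrane proteins Lamp1 and Mcoln1, the cholesterol exporter Npc1 and the V1 subunits Atp6v1a and Atp6v1b2. With PVDF@PDA these 9 genes were 13.7% to 20.8% above Control, and with PCL@PDA 12.3% to 31.9%. Among the 9, Npc1 kept its calls least often, in 9 of 16 alternative fits with PVDF@PDA and 4 with PCL@PDA. The lysosomal glycosidases Glb1 and Man2b1 were lower with PVDF@PDA, and the V1 subunit Atp6v1d was lower with PCL@PDA. Of the 16 alternative fits, 10 kept the call of Glb1, 7 that of Man2b1 and 9 that of Atp6v1d. Between the materials 0 of the 48 genes tested passed with all 6 libraries in a fit without batch, beside 0.0538% of all genes called higher and 0.00768% called lower. Calls here are edgeR quasi-likelihood tests at an adjusted p (Benjamini-Hochberg, across the 13018 genes tested) below 0.05, differences are log2 values, and levels are CPM, counts scaled to the TMM-adjusted library total. All comparisons with Control use the same Control libraries, so their results are given side by side and not as independent evidence.

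Of the 49 genes 48 had enough counts to be tested, and Ctsf, a cysteine protease, had 1 to 6 counts per library. With PVDF@PDA 13 of the 48 differed from Control, beside 15.7% of all genes tested. These were 11 higher (22.9%) and 2 lower (4.17%), while among all genes 6.79% were higher and 8.9% lower. With PCL@PDA 21 of the 48 differed, beside 20.1% of all genes, with 20 higher (41.7%) and 1 lower (2.08%) against 8.77% and 11.3% of all genes. The list was chosen with earlier results of these data known, so these shares describe it and are no test of it. Most of the 48 are abundant, and 46 had a mean of at least 10 CPM. Among all 8816 genes at that level, a background added after the data were seen, 7.5% were higher and 12.2% lower with PVDF@PDA, and 10.2% and 15.7% with PCL@PDA. In that range 10 of the 46 were higher and 2 lower with PVDF@PDA, and 20 were higher and 1 lower with PCL@PDA, while between the materials 0 of the 46 passed, beside 0.0227% higher and 0.0113% lower. The median difference of the 48 was 0.10 with PVDF@PDA, where all genes tested had 0.0057, and 0.14 with PCL@PDA, where all genes had 0.0089. Scaled by library totals alone, the counts became 17 higher and 1 lower with PVDF@PDA and 23 higher and 0 lower with PCL@PDA, and all genes then split into 1164 higher and 879 lower and into 1482 higher and 1070 lower. That scaling ended the lower calls of Man2b1 with PVDF@PDA and of Atp6v1d with PCL@PDA. In the fit with batch as a block, 18 of the 48 differed with PVDF@PDA (19.9% of all genes), 16 higher (8.75% of all) and 2 lower (11.2%). With PCL@PDA it was 24 (23.4% of all genes), 22 higher (10.3%) and 2 lower (13.1%). The block fit leaves 2 residual degrees of freedom, beside 3 without it. At the median gene its estimate of spread rested wholly on the trend across genes. The p-values with batch as a block given below carry this limit. The fit without the block leaned mostly on that trend too. At the median gene the trend weighed as 50.3 degrees of freedom beside the 3 residual ones. Its p-values, intervals and SEs therefore reflect mostly a spread shared across genes.

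**Figure D1:**
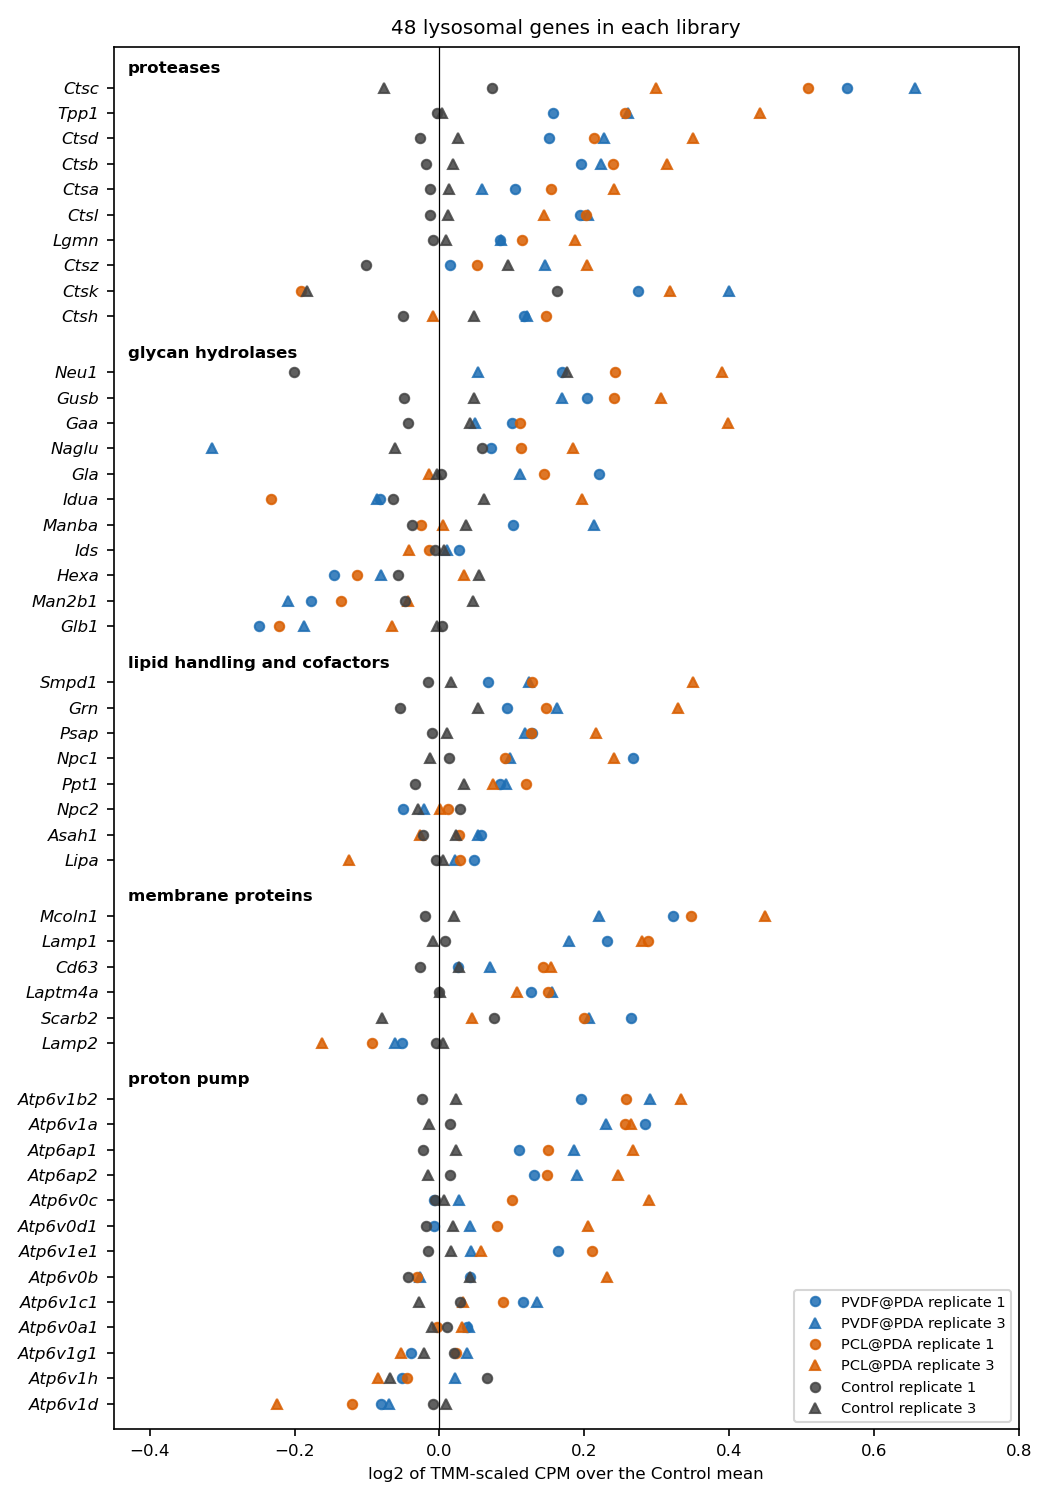
Level of each of the 48 tested genes in each library, as log2 of its TMM-scaled CPM over the mean of the Control libraries, by role. Circles are replicate 1 and triangles replicate 3, and for Ctsb, Ctsd, Lamp1, Mcoln1, Atp6v1a and Atp6v1b2 all 4 libraries with a material lie to the right of both Control libraries.

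**Figure D2:**
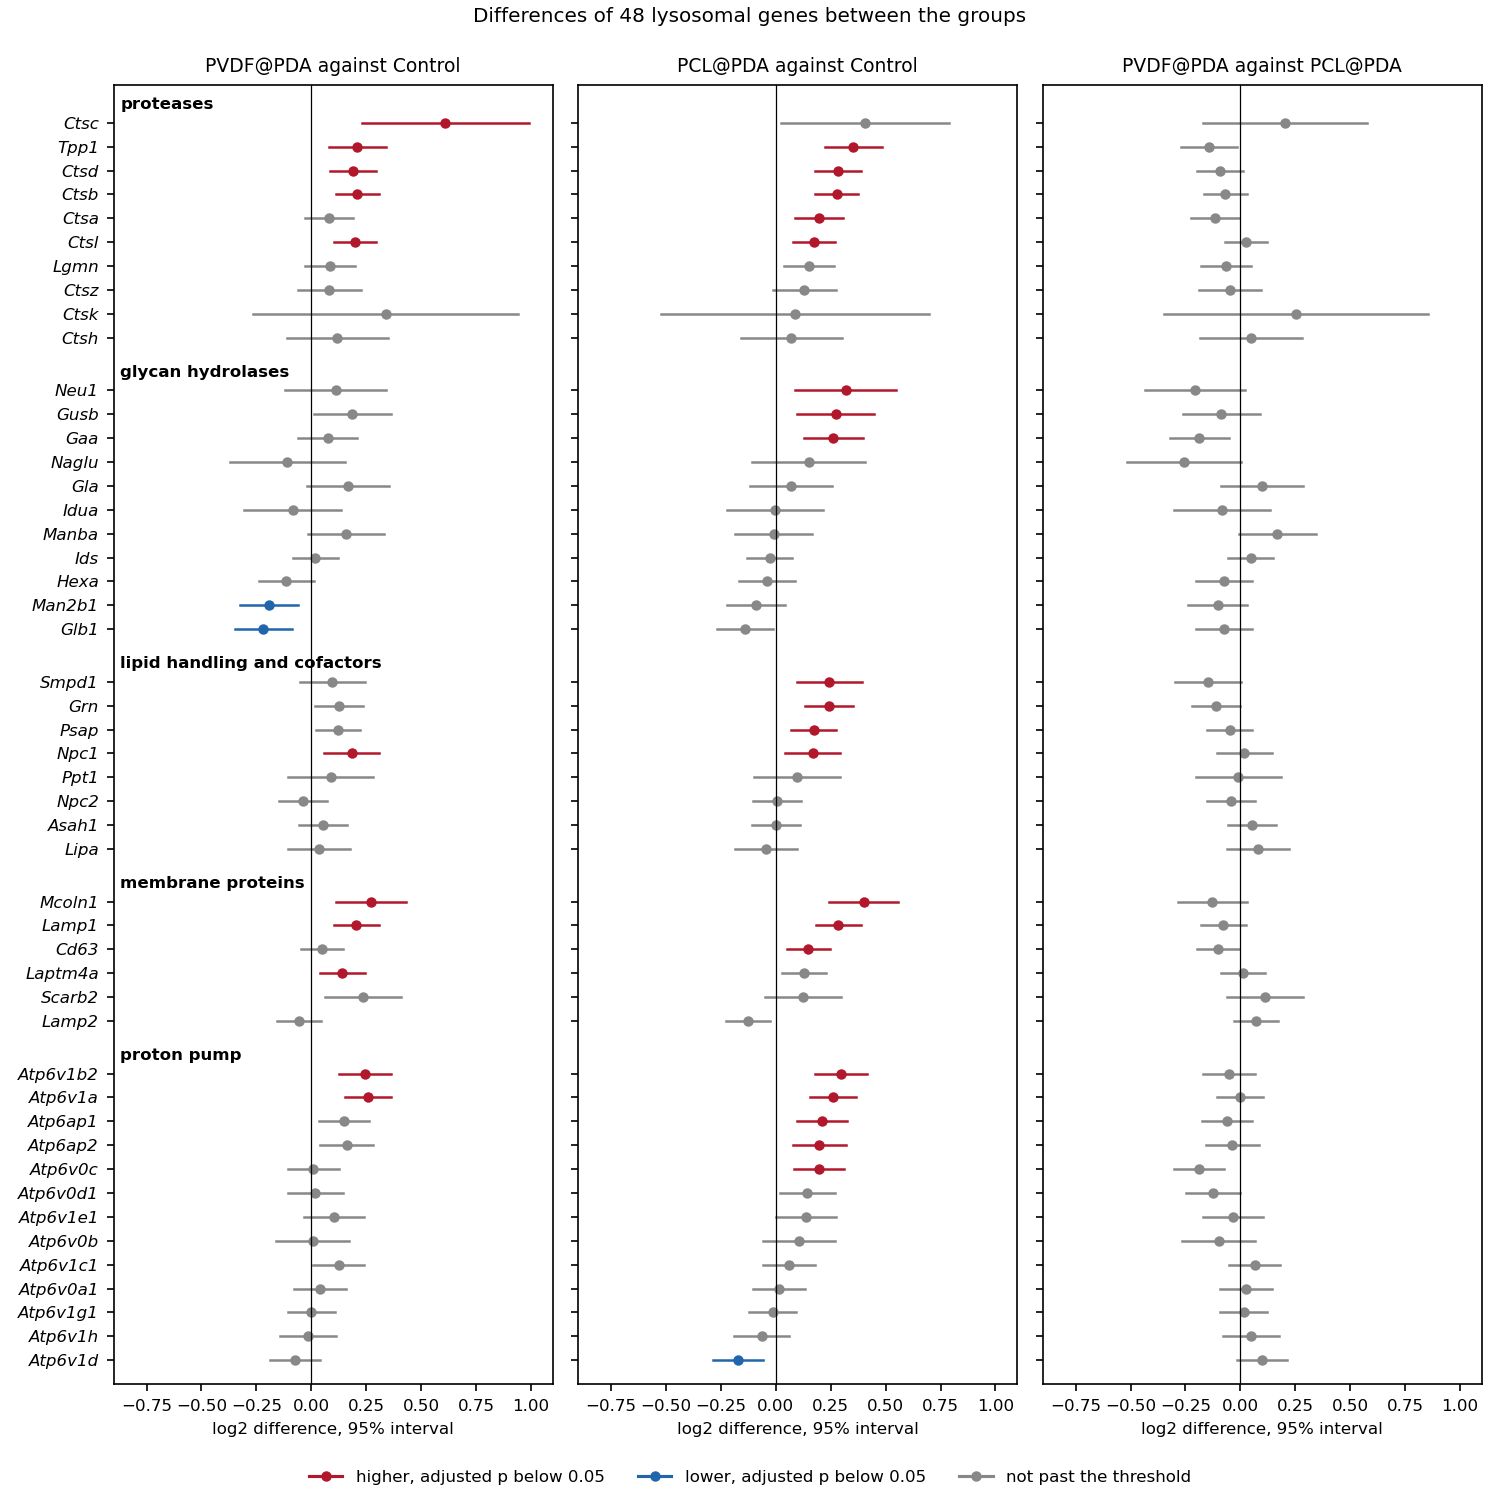
Log2 difference of each tested gene (points) with its 95% interval (bars) in the 3 comparisons, by role. Colour marks an adjusted p below 0.05, which 11 genes passed as higher and 2 as lower with PVDF@PDA, 20 and 1 with PCL@PDA, and 0 between the materials.

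Each library held 32760123 to 35389307 counts, where 3 counts correspond to 0.0861 to 0.0911 CPM, a floor that covers counting error only. PCL@PDA replicate 3 stood apart, since chi-square per degree of freedom between the replicates' counts was 10.4 for PCL@PDA, 4.83 for PVDF@PDA and 5.57 for Control. The line's Schwann cell label was only partly borne out, because S100b stayed at 0.84 CPM or less and Ngfr, Cdh19 and Pou3f1 at 0.121 CPM or less. Against that, Ncam1, Jun, Sox2, Pmp22 and Erbb3 had at least 10.2 CPM in every library. Sox10 and Foxd3, also listed as Schwann cell markers, were not found in the count table. The 16 Schwann cell markers in the table summed to 448 to 457 CPM with PVDF@PDA, 425 to 456 with PCL@PDA and 398 to 402 in Control, with 3 of 12 tested higher and 2 lower with PVDF@PDA, and 4 higher and 1 lower with PCL@PDA. The part of these and the following markers in the lysosomal differences was not tested. Of 17 macrophage markers 11 were in the table. They summed to 8.62 to 9.02 CPM with PVDF@PDA, 8.03 to 8.88 with PCL@PDA and 8.24 to 8.28 in Control, most of it Cd14. The 6 that could be tested had median differences of 0.82 with PVDF@PDA and 0.55 with PCL@PDA and gave no call, but in the fit with batch as a block Cd68 was higher with PVDF@PDA (adjusted p = 0.0251, after 0.0688 without it). Ptprc, which encodes CD45, was at 0 in every library but Control replicate 3 with 0.0287 CPM, and Cd68, also a lysosomal membrane protein, had 0.698 and 0.905 CPM under PVDF@PDA, 0.868 and 0.0876 under PCL@PDA, and 0 and 0.287 in Control. Of 5 fibroblast markers tested 3 were higher and 1 lower with each material, with median differences of 0.65 with PVDF@PDA and 0.57 with PCL@PDA. The 7 in the table summed to 814 to 835 CPM with PVDF@PDA, 820 to 844 with PCL@PDA and 858 to 864 in Control. Most of that sum was Col1a2, the lower gene. In these bulk samples fewer cells with a transcript and less of it per cell cannot be told apart.

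Together the 49 genes took 11433 and 11570 CPM under PVDF@PDA, 11660 and 12000 under PCL@PDA, and 10609 and 10804 in Control. This was 1.15% and 1.17% of all counts with PVDF@PDA, 1.17% and 1.22% with PCL@PDA, and 1.04% and 1.06% in Control, so all 4 libraries with a material lay above both Control libraries. On the scale of FPKM (fragments scaled to gene length and library total), which allows levels of different genes to be compared, 46 of the 49 lay above the median of all genes in the table, 3.74 FPKM. Cd63, a tetraspanin of late endosomes and exosomes, led with a mean of 930.0 FPKM over the 6 libraries, followed by the endopeptidases Ctsl with 865 and Ctsb with 484. Laptm4a, a small transmembrane protein of late endosomes, had 347 FPKM, Ctsd 316, the pump subunit Atp6v1g1 311, Grn 274 and Psap 210.0. The pump genes ran from 33.4 FPKM for Atp6v0a1 to the value of Atp6v1g1. At the low end, Naglu had 6.73 FPKM, Ctsk, the collagen-degrading cathepsin of osteoclasts, 1.89, Ctsc 1.14 and Ctsf 0.0501.

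**Figure D3:**
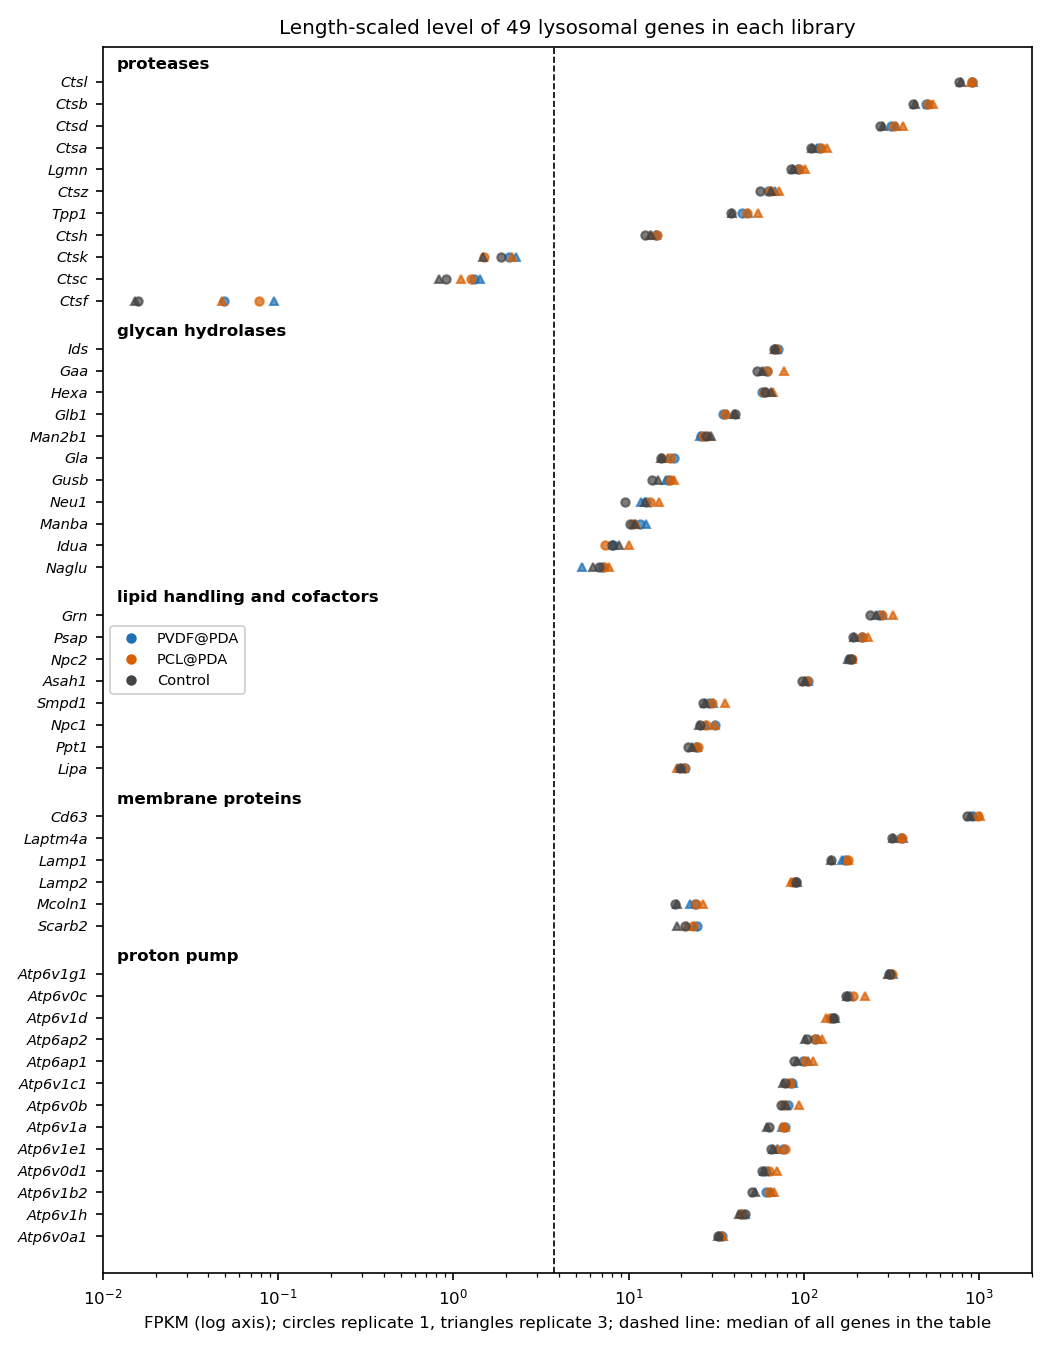
Level of each of the 49 genes in each library in FPKM on a log axis, by role and ordered by the mean. Circles are replicate 1 and triangles replicate 3, and the dashed line at 3.74 FPKM is the median of all genes in the table, which Ctsk, Ctsc and Ctsf do not reach.

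The promoters of the genes were read for the E-box because 41 of the 49 have a promoter in the RefSeq table (assembly GRCr8), each with 250 bases before and 50 after the annotated start. The palindrome CACGTG, which reads the same on both strands, stood in 9 of the 41 (22%), in 6.42% of all 33469 promoters and in 8.92% of the 12114 promoters of tested genes. The longer GTCACGTG, searched on both strands (CACGTGAC on the other) and always containing the shorter palindrome, stood in 7 of the 41 (17.1%), in 1.85% of all promoters and in 3.52% of those of tested genes. TCACGTGA, a palindrome that also contains CACGTG and can overlap GTCACGTG, stood in 4 of the 41 (9.76%), in 0.777% of all and in 1.6% of tested genes. The 10-base palindrome with GT before CACGTG and AC after it stood in 0 of the 41, in 0.233% of all promoters and in 0.495% of those of tested genes. The 3 promoters with more than 1 copy of CACGTG belong to Lamp1, Ctsd and Mcoln1, whose transcripts were higher than Control with both materials. The promoters of Ctsl, Tpp1, Npc1 and Atp6v1a, also higher with both materials, held 0 copies. Ctsb and Atp6v1b2, higher with both as well, have no promoter among the 41. A link between copies and transcript levels was not tested. The promoters of Lamp1, Ctsd and Mcoln1 are shown whole, 5′ to 3′ along the gene's strand, with the palindromes in capitals. The Lamp1 promoter (GRCr8 chr16:83075014-83075313, minus strand) has 5 copies that begin at 183, 167, 150, 65 and 38 bases before the start. The Ctsd promoter (chr1:206968772-206969071, minus strand) has copies at 157 and 10 bases before the start, and the Mcoln1 promoter (chr12:6358008-6358307, plus strand) has 1 at 22 bases before and 1 at base 5 after it.
Lamp1: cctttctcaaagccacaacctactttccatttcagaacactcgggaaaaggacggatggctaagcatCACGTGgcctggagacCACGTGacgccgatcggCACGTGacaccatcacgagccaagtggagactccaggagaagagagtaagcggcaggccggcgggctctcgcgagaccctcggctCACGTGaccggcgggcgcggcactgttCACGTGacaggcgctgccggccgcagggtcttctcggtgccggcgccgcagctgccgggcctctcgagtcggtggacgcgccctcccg
Ctsd: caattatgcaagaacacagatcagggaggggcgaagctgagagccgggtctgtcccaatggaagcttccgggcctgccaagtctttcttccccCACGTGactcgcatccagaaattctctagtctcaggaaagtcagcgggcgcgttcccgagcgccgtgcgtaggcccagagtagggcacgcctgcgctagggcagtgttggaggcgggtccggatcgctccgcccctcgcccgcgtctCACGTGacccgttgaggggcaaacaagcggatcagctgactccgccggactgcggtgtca
Mcoln1: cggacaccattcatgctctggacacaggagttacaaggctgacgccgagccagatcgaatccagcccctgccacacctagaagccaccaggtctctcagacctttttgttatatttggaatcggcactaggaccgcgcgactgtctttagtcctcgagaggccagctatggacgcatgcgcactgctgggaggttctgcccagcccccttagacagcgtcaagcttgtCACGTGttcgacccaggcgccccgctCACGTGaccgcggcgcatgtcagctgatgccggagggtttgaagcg

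For contrast, stretches of 50 bases are shown around the single CACGTG of 4 genes that did not share that pattern of calls. Cd63 (GRCr8 chr7:1921932-1921981, plus strand, copy at 190 bases before the start) and Gaa (chr10:105028266-105028315, plus strand, at 67 bases before) were higher with PCL@PDA but not called with PVDF@PDA. Glb1 (chr8:122963596-122963645, plus strand, at 100 bases before) was lower with PVDF@PDA, and Atp6v0d1 (chr19:50357273-50357322, minus strand, at 52 bases before) was not called in either comparison.
Cd63: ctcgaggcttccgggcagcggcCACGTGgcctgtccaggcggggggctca
Gaa: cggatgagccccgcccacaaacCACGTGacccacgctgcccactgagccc
Glb1: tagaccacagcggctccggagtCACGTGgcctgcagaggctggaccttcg
Atp6v0d1: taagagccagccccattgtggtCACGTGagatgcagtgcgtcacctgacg
The other copies were in Idua, 3 bases before the start, and in Ctsf, 149 bases before it. Of the 19 genes with a promoter that were higher with at least 1 material, 5 held CACGTG, and of the other 22 genes 4 did. A match of letters is a description and not a binding site.

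**Figure D4:**
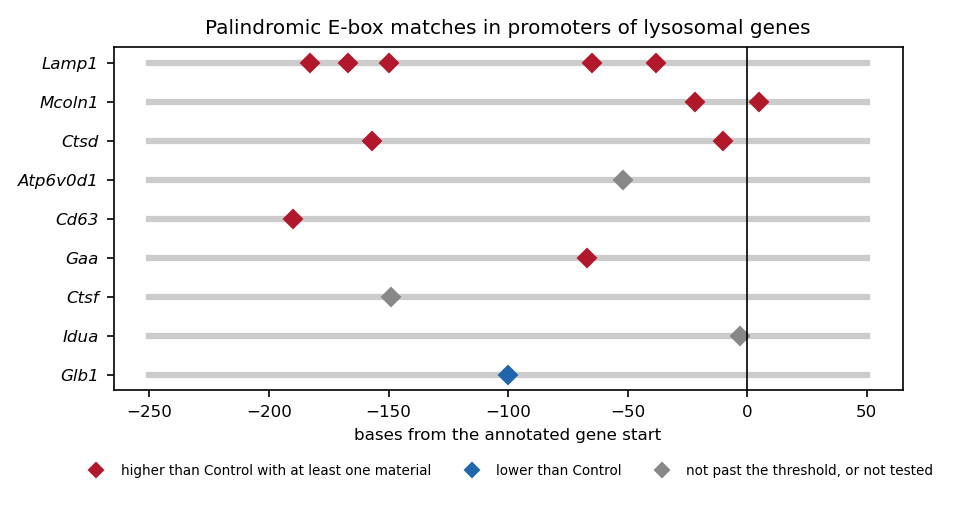
Positions of CACGTG (diamonds) in the 9 promoters that hold it, in bases from the annotated start, with 250 bases before and 50 after it as grey bars. Lamp1 has 5 copies, Ctsd and Mcoln1 have 2 each, and colour gives the call of the transcript against Control.

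Among the proteases, 5 of the 10 tested genes were higher than Control with each material and 0 were lower, with a median difference of 0.19 with PVDF@PDA and 0.19 with PCL@PDA. Ctsb, a cysteine protease and one of the main lysosomal endopeptidases (gene ID 64529), stood at 958 and 977 CPM under PVDF@PDA, 988 and 1041 under PCL@PDA, and 826 and 847 in Control, where replicate 1 precedes replicate 3 here and below. All 4 libraries with a material were above both Control libraries, by 0.21 ± 0.049 (SE, n = 2 per group) with PVDF@PDA (adjusted p = 0.00146) and by 0.28 ± 0.049 with PCL@PDA (adjusted p = 2.10e-05). Ctsd, the main aspartic protease of lysosomes (gene ID 171293), had 624 and 657 CPM under PVDF@PDA, 651 and 716 under PCL@PDA, and 552 and 572 in Control. Its groups with a material did not overlap Control either, and the differences were 0.19 ± 0.052 (adjusted p = 0.00719) and 0.28 ± 0.052 (adjusted p = 4.15e-05). Ctsl, the second most abundant of the 49 by FPKM and a potent cysteine endopeptidase (gene ID 25697), had 1244 and 1254 CPM under PVDF@PDA, 1251 and 1201 under PCL@PDA, and 1078 and 1097 in Control. The transcript was higher by 0.20 ± 0.048 with PVDF@PDA (adjusted p = 0.00194) and by 0.17 ± 0.048 with PCL@PDA (adjusted p = 0.0064).

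Tpp1, a tripeptidyl peptidase that trims peptides from their amino end (gene ID 83534), had 108 and 116 CPM under PVDF@PDA, 116 and 132 under PCL@PDA, and 96.9 and 97.4 in Control. Its level was higher by 0.21 ± 0.065 with PVDF@PDA (adjusted p = 0.019) and by 0.35 ± 0.065 with PCL@PDA (adjusted p = 4.39e-05). Ctsc, a dipeptidyl peptidase that activates serine proteases of immune cells (gene ID 25423), was scarce, with 7.96 and 8.50 CPM under PVDF@PDA, 7.67 and 6.63 under PCL@PDA, and 5.67 and 5.11 in Control. It had the largest difference of the 48 with PVDF@PDA, 0.61 ± 0.19 (adjusted p = 0.0193), and 0.41 ± 0.19 with PCL@PDA, which did not pass (adjusted p = 0.13). Ctsa, a carboxypeptidase that also protects the glycosidases Neu1 and Glb1 (gene ID 296370), had 240.1 and 233 CPM under PVDF@PDA, 249 and 264 under PCL@PDA, and 221 and 225 in Control. All libraries with a material lay above Control, and it was higher with PCL@PDA by 0.20 ± 0.055 (adjusted p = 0.0063), with 0.08 ± 0.055 for PVDF@PDA (adjusted p = 0.348). The remaining tested proteases Lgmn, Ctsz, Ctsh and Ctsk differed from Control by 0.08 to 0.34 with PVDF@PDA and by 0.07 to 0.15 with PCL@PDA, none past the test. Lgmn, an asparaginyl endopeptidase, was higher with PCL@PDA in the fit with batch as a block (adjusted p = 0.0206), after 0.0503 without it.

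Single libraries decided several protease calls. With PVDF@PDA, the calls of Ctsb, Ctsd and Ctsl ended when PVDF@PDA replicate 3 was left out (adjusted p = 0.0663, 0.216 and 0.0642), and also when Control replicate 1 was left out (0.0686, 0.143 and 0.0714). The call of Tpp1 with PVDF@PDA ended without PVDF@PDA replicate 3 (adjusted p = 0.302), Control replicate 1 (0.122) or Control replicate 3 (0.106). That of Ctsc ended without any 1 of the 4 libraries compared (adjusted p = 0.0645, 0.153, 0.0575 and 0.16 without PVDF@PDA replicates 1 and 3 and Control replicates 1 and 3). With PCL@PDA, the calls of Ctsb, Ctsd and Tpp1 held without each of the 6 libraries, and those of Ctsa and Ctsl ended without Control replicate 1 (adjusted p of 0.105 for Ctsa and 0.125 for Ctsl). In the GRCr8 annotation Ctsa overlaps Pltp and Neurl2, Ctsd overlaps Tnni2 and Ctsz overlaps Nelfcd, and the strand used in counting is not given in the sources used here.

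Of the 11 glycan hydrolases 0 were higher and 2 lower with PVDF@PDA, and 3 were higher and 0 lower with PCL@PDA, with medians of 0.02 and -0.002. Glb1, the beta-galactosidase whose activity at acid pH is a common stain for senescent cells (gene ID 316033), had 97.3 and 102 CPM under PVDF@PDA, 99.2 and 111 under PCL@PDA, and 116 and 115 in Control. Every library with a material lay below both Control libraries, and Glb1 was lower with PVDF@PDA, at -0.22 ± 0.064 (adjusted p = 0.0127), with -0.14 ± 0.064 for PCL@PDA (adjusted p = 0.112). Man2b1, the lysosomal alpha-mannosidase (gene ID 361378), had 82.3 and 80.5 CPM under PVDF@PDA, 84.7 and 90.2 under PCL@PDA, and 90.0 and 96.0 in Control. It was lower with PVDF@PDA, at -0.19 ± 0.067 (adjusted p = 0.0384), and with PCL@PDA, where the groups overlapped, it differed by -0.09 ± 0.066 (adjusted p = 0.388). The call of Glb1 ended without PVDF@PDA replicate 1 (adjusted p = 0.162), Control replicate 1 (0.0934) or Control replicate 3 (0.0673), and that of Man2b1 without any 1 of the 4 libraries compared (0.131, 0.238, 0.0692 and 0.326, in the order used for Ctsc).

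Gaa, the acid alpha-glucosidase that degrades glycogen (gene ID 367562), had 214 and 207 CPM under PVDF@PDA, 216 and 263 under PCL@PDA, and 194 and 206 in Control, with PCL@PDA replicate 3 far above the other 5 libraries. With PCL@PDA it was higher by 0.26 ± 0.066 (adjusted p = 0.00387), a call that ended without PCL@PDA replicate 3, with a difference of 0.11 (adjusted p = 0.213), or without Control replicate 1 (0.0555). Neu1, the sialidase (gene ID 24591), had 24.5 and 22.6 CPM under PVDF@PDA, 25.8 and 28.5 under PCL@PDA, and 18.9 and 24.6 in Control. Its difference with PCL@PDA was 0.32 ± 0.11 (adjusted p = 0.0402) and rested on PCL@PDA replicate 3 and Control replicate 1, without which the adjusted p was 0.229 and 0.598. Gusb, the beta-glucuronidase (gene ID 24434), had 41.1 and 40.2 CPM under PVDF@PDA, 42.2 and 44.2 under PCL@PDA, and 34.6 and 36.9 in Control. The transcript was higher with PCL@PDA by 0.27 ± 0.087 (adjusted p = 0.0196), which also ended without PCL@PDA replicate 3 (0.0959) or Control replicate 1 (0.219). The heparan sulphate enzyme Naglu had 17.8 and 13.6 CPM under PVDF@PDA, 18.3 and 19.2 under PCL@PDA, and 17.6 and 16.2 in Control, and the beta-mannosidase Manba 42.2 and 45.6 CPM under PVDF@PDA, 38.6 and 39.5 under PCL@PDA, and 38.3 and 40.3 in Control. Neither passed in any comparison, and Naglu was lowest in PVDF@PDA replicate 3. The other 4, Gla, Hexa, Idua and Ids, the alpha-galactosidase, a hexosaminidase subunit, the iduronidase and the iduronate sulphatase, differed from Control by -0.11 to 0.17 with PVDF@PDA and by -0.04 to 0.07 with PCL@PDA, none past the test. Glb1 overlaps Tmppe, Hexa overlaps Tmem202 and Idua overlaps Dgkq and Slc26a1 in the annotation.

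Of the 8 genes of lipid handling and cofactors, 1 was higher with PVDF@PDA and 4 with PCL@PDA, and 0 were lower, with medians of 0.09 and 0.13. Npc1, the membrane protein that moves cholesterol out of lysosomes (gene ID 266732), had 159.6 and 142 CPM under PVDF@PDA, 141 and 157 under PCL@PDA, and 134 and 131 in Control. Against Control it was higher by 0.18 ± 0.063 with PVDF@PDA (adjusted p = 0.0353) and by 0.17 ± 0.063 with PCL@PDA (adjusted p = 0.0494). With all 6 libraries, both calls ended under DESeq2 and under limma on FPKM. The call with PCL@PDA also ended with RLE size factors and in a non-robust fit. Both calls depended on single libraries, and the first ended without PVDF@PDA replicate 1 (adjusted p = 0.545), Control replicate 1 (0.12) or Control replicate 3 (0.2). The second ended without PVDF@PDA replicate 1 (adjusted p = 0.0595), PVDF@PDA replicate 3 (0.06), PCL@PDA replicate 3 (0.408), Control replicate 1 (0.152) or Control replicate 3 (0.219). Npc1 overlaps Rmc1, which averaged 1415 counts per library beside 4901 for Npc1, and Psap overlaps Cdh23.

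Grn, progranulin, a secreted and lysosomal precursor of the granulins (gene ID 29143), had 609 and 639 CPM under PVDF@PDA, 632 and 717 under PCL@PDA, and 549.7 and 592 in Control. It was higher with PCL@PDA by 0.24 ± 0.054 (adjusted p = 0.000874; 0.0734 without Control replicate 1), and for PVDF@PDA the difference of 0.13 ± 0.054 had an adjusted p of 0.102, or 0.0182 with batch as a block. Psap, the precursor of the saposins that present lipids to hydrolases (gene ID 25524), had 559 and 555 CPM under PVDF@PDA, 558 and 594 under PCL@PDA, and 508 and 515 in Control. With PCL@PDA it was higher by 0.17 ± 0.050 (adjusted p = 0.0105), and for PVDF@PDA it differed by 0.12 ± 0.051 (adjusted p = 0.0909, or 0.0292 with batch as a block). The call of Psap with PCL@PDA ended without PCL@PDA replicate 3 (0.0674), Control replicate 1 (0.139) or Control replicate 3 (0.0657). Smpd1, the acid sphingomyelinase (gene ID 308909), had 66.3 and 68.9 CPM under PVDF@PDA, 69.2 and 80.7 under PCL@PDA, and 62.6 and 64.0 in Control, again highest in PCL@PDA replicate 3. The transcript was higher with PCL@PDA by 0.24 ± 0.074 (adjusted p = 0.0139), which ended without PCL@PDA replicate 3 (0.327), Control replicate 1 (0.118) or Control replicate 3 (0.0562). The acid lipase Lipa, the ceramidase Asah1, the thioesterase Ppt1 and the cholesterol carrier Npc2 lay within -0.04 to 0.09 of Control with PVDF@PDA and within -0.05 to 0.10 with PCL@PDA, none past the test.

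Of the 6 membrane proteins 3 were higher with each material and 0 lower, with medians of 0.17 and 0.14. Lamp1, a heavily glycosylated protein that lines the lysosomal membrane (gene ID 25328), had 411 and 396 CPM under PVDF@PDA, 427 and 425 under PCL@PDA, and 352 and 348 in Control. All libraries with a material lay above Control, by 0.21 ± 0.051 with PVDF@PDA (adjusted p = 0.00305) and by 0.28 ± 0.051 with PCL@PDA (adjusted p = 3.18e-05). Lamp2, its paralogue with roles in chaperone-mediated autophagy, had 602 and 598 CPM under PVDF@PDA, 585 and 558 under PCL@PDA, and 622 and 626 in Control. Its values with a material were all below Control, at -0.06 ± 0.050 (adjusted p = 0.496) with PVDF@PDA and -0.13 ± 0.050 (adjusted p = 0.0633, or 0.0174 with batch as a block) with PCL@PDA. The Lamp1 promoter holds 5 copies of CACGTG and that of Lamp2 holds 0, and whether this bears on their levels was not tested.

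Mcoln1, the calcium channel TRPML1 (gene ID 288371), had 56.8 and 52.9 CPM under PVDF@PDA, 57.7 and 62.0 under PCL@PDA, and 44.8 and 46.0 in Control. It was higher by 0.27 ± 0.079 with PVDF@PDA (adjusted p = 0.0123) and by 0.40 ± 0.079 with PCL@PDA (adjusted p = 0.000137), with no overlap with Control in either. Laptm4a had 454 and 464 CPM under PVDF@PDA, 462 and 448 under PCL@PDA, and 416 and 416 in Control and was higher with PVDF@PDA by 0.14 ± 0.051 (adjusted p = 0.048), with 0.13 ± 0.051 for PCL@PDA (adjusted p = 0.0643, or 0.0211 with batch as a block). Cd63 had 1149 and 1184 CPM under PVDF@PDA, 1246 and 1255 under PCL@PDA, and 1107 and 1149 in Control, and was higher with PCL@PDA by 0.15 ± 0.048 (adjusted p = 0.0208). It overlaps Rdh5 in the annotation. Scarb2, the receptor that carries beta-glucocerebrosidase to lysosomes, was at 0.24 ± 0.086 with PVDF@PDA (adjusted p = 0.0533, or 0.0286 with batch as a block) and at 0.13 ± 0.087 with PCL@PDA (adjusted p = 0.347). The calls of Lamp1 and Mcoln1 with PCL@PDA held without each library. With PVDF@PDA, Lamp1 lost its call without PVDF@PDA replicate 1 (adjusted p = 0.111) or Control replicate 3 (0.0661). Mcoln1 lost it without PVDF@PDA replicate 1 (0.201), Control replicate 1 (0.122) or Control replicate 3 (0.063), and Laptm4a without any 1 of the 4 libraries compared (0.184, 0.341, 0.245 and 0.236). The call of Cd63 with PCL@PDA ended without Control replicate 1 (0.285) or Control replicate 3 (0.0659).

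Of the 13 genes of the proton pump 2 were higher and 0 lower with PVDF@PDA, and 5 were higher and 1 lower with PCL@PDA, with medians of 0.04 and 0.14. In the V1 sector the catalytic hexamer is built from the A and B subunits. The A subunit Atp6v1a (gene ID 685232) had 326 and 314 CPM under PVDF@PDA, 320.1 and 322 under PCL@PDA, and 271 and 265 in Control. The transcript was higher by 0.26 ± 0.053 with PVDF@PDA (adjusted p = 0.000258) and by 0.26 ± 0.052 with PCL@PDA (adjusted p = 0.000181). Of the 13 calls with PVDF@PDA it alone held under all 16 alternatives tried. The B subunit Atp6v1b2 (gene ID 117596) had 163 and 174 CPM under PVDF@PDA, 169.8 and 179 under PCL@PDA, and 139.8 and 144 in Control. Its level was higher by 0.24 ± 0.059 (adjusted p = 0.00201; 0.121 without PVDF@PDA replicate 3 and 0.0653 without Control replicate 1) and by 0.30 ± 0.059 (adjusted p = 0.000137).

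Of the other 5 V1 subunits 1 was called, and it was lower. Atp6v1d, part of the central rotor (gene ID 299159), had 187 and 188 CPM under PVDF@PDA, 182 and 169 under PCL@PDA, and 196 and 199 in Control, lowest in PCL@PDA replicate 3. It was lower with PCL@PDA, at -0.17 ± 0.057 (adjusted p = 0.0247), a call that ended without PCL@PDA replicate 3 (0.139), Control replicate 1 (0.12) or Control replicate 3 (0.141), and the difference with PVDF@PDA was -0.07 ± 0.057 (adjusted p = 0.418). Atp6v1c1, Atp6v1e1, Atp6v1g1 and Atp6v1h, which link or regulate V1 and V0, differed from Control by -0.01 to 0.13 with PVDF@PDA and by -0.06 to 0.14 with PCL@PDA, none past the test. Atp6v1h overlaps Rgs20 in the annotation.

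In the V0 sector, Atp6v0c, the proteolipid of the proton-carrying ring (gene ID 170667), had 216 and 221 CPM under PVDF@PDA, 233 and 265 under PCL@PDA, and 216 and 218 in Control, with PCL@PDA replicate 3 above all others. It was higher with PCL@PDA by 0.20 ± 0.057 (adjusted p = 0.00978) and stood at 0.01 ± 0.057 with PVDF@PDA (adjusted p = 0.935). The call ended without PCL@PDA replicate 3 (0.269), Control replicate 1 (0.0944) or Control replicate 3 (0.0559). Atp6v0d1, which couples the ring to the V1 rotor (gene ID 291969), had 110.1 and 114 CPM under PVDF@PDA, 117 and 128 under PCL@PDA, and 109 and 112 in Control, and neither it nor the ring subunit Atp6v0b or the a subunit Atp6v0a1 passed against Control. These 3 differed by 0.01 to 0.04 with PVDF@PDA and by 0.01 to 0.14 with PCL@PDA.

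Among the accessory proteins, Atp6ap1 (gene ID 83615) had 205 and 216 CPM under PVDF@PDA, 211 and 228 under PCL@PDA, and 187 and 193 in Control. Atp6ap2, the prorenin receptor (gene ID 302526), had 134 and 139.6 CPM under PVDF@PDA, 136 and 145 under PCL@PDA, and 124 and 121 in Control. Every library with a material lay above both Control libraries for these 2 genes, and both were higher with PCL@PDA, by 0.21 ± 0.057 (adjusted p = 0.00529) and 0.20 ± 0.060 (adjusted p = 0.0135). Their differences with PVDF@PDA, 0.15 and 0.16, had adjusted p-values of 0.0657 and 0.0597, or 0.0229 and 0.0273 with batch as a block. With PCL@PDA the call of Atp6ap1 ended without PCL@PDA replicate 3 (0.0635) or Control replicate 1 (0.107). Atp6ap2 lost its call without PCL@PDA replicate 3 (0.108), Control replicate 1 (0.077) or Control replicate 3 (0.128).

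Between the materials, the contrast named in the series' design, 0 of the 48 tested genes passed, beside 0.0615% of all genes (8 of 13018). At an unadjusted p below 0.05 there were 7 of the 48 and 1105 of all genes. DESeq2, which also tested Ctsf, called 0 of the 49, with 4 below that unadjusted p, beside 797 of 16849 genes. The median of the 48 was -0.048, beside 0.0045 for all genes, and single differences ran from -0.26 for Naglu to 0.25 for Ctsk. A p that misses the threshold does not show that the materials act alike, and the 95% intervals of the 48 genes reached from -0.52 at the lowest to 0.85 at the highest. The smallest p belonged to Atp6v0c at -0.19 (95% interval -0.30 to -0.07, adjusted p = 0.372), with both PVDF@PDA libraries below both PCL@PDA libraries. With batch as a block it was lower with PVDF@PDA (adjusted p = 0.0448), beside 0.453% of all genes called in that fit, 0.131% as higher and 0.323% as lower. Gaa followed at -0.19 (95% interval -0.32 to -0.05, adjusted p = 0.421), then Tpp1 at -0.14, Ctsa at -0.12, Cd63 at -0.10, Grn at -0.11 and Atp6v0d1 at -0.13, with adjusted p-values of 0.531 to 0.579. The next in order were Smpd1 at -0.15, Naglu, Manba at 0.17, Neu1 at -0.21 and Ctsd at -0.09. Manba alone among these 12 had the higher values with PVDF@PDA.

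The contrast between the materials depended on which PCL@PDA library stood for its group. Within batch 1 Gaa differed by -0.01 and within batch 3 by -0.35, Atp6v0c by -0.11 and -0.26, and Naglu by -0.04 and -0.49. Without PCL@PDA replicate 1, 6 genes were lower with PVDF@PDA, beside 6.16% of all genes called (827). They were Gaa (-0.32, adjusted p = 8.20e-06), Atp6v0c (-0.28, 0.000111), Grn (-0.20, 0.0019), Tpp1 (-0.23, 0.0126), Ctsd (-0.16, 0.0184) and Smpd1 (-0.25, 0.0247). Without PCL@PDA replicate 3, the library that stands apart, 0 passed, and Gaa was at -0.04, Grn at -0.02 and Ctsd at -0.02. The share of all genes given without PCL@PDA replicate 1 counts both directions, while the lysosomal genes beside it were all lower. In both fits the single PCL@PDA library is assumed to vary like the other groups.

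**Figure D5:**
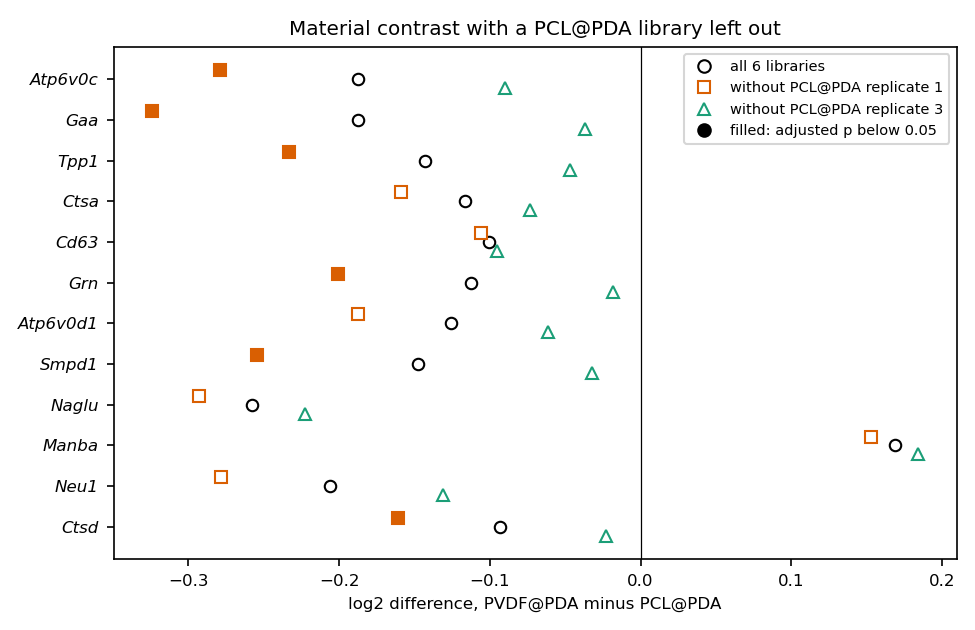
Log2 difference of PVDF@PDA from PCL@PDA for the 12 genes with the smallest p, with all 6 libraries (circles) and without either PCL@PDA library (squares and triangles). Filled symbols mark an adjusted p below 0.05, and only the squares, without PCL@PDA replicate 1, hold any, 6 in all.

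Other genes of the lysosomal pathway were read from 6 further lists, and 0 of their tested genes passed between the materials, beside 0.0615% of all genes. Of all genes 6.79% were higher and 8.9% lower with PVDF@PDA, and 8.77% and 11.3% with PCL@PDA. Without the block, counts for the pump subunits and regulators below did not exceed these shares, nor did those for membrane proteins with PVDF@PDA. With batch as a block the shares were 8.75% and 11.2% with PVDF@PDA, and 10.3% and 13.1% with PCL@PDA. Of 28 other lysosomal hydrolases 4 were higher with PVDF@PDA and 9 with PCL@PDA, and 0 lower, with medians of 0.11 and 0.20. With batch as a block 7 and 11 were higher and 0 lower. Pla2g15, a lysosomal phospholipase, had 29.1 and 28.3 CPM under PVDF@PDA, 28.5 and 37.5 under PCL@PDA, and 22.8 and 21.7 in Control. All libraries with a material lay above Control, by 0.37 ± 0.11 with PVDF@PDA (adjusted p = 0.0148) and by 0.57 ± 0.11 with PCL@PDA (adjusted p = 9.04e-05). The call with PVDF@PDA ended without PVDF@PDA replicate 1 (0.0904), PVDF@PDA replicate 3 (0.0549) or Control replicate 3 (0.119). Plbd2, a lysosomal protein of the phospholipase B family, was the gene of this list that the block fit called between the materials, at -0.26 (adjusted p = 0.00352; 0.0938 without the block).

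Of 24 other lysosomal membrane proteins 1 was higher with PVDF@PDA and 4 with PCL@PDA, with 0 lower and medians of 0.09 and 0.13. With batch as a block 3 and 4 were higher and 0 lower. Abca2, a lipid transporter, was at 0.27 with PVDF@PDA (adjusted p = 0.0816) and higher by 0.40 with PCL@PDA (adjusted p = 0.00466; 0.0657 without PCL@PDA replicate 3 and 0.0929 without Control replicate 3). Of 12 other pump subunits, 1 was higher with PCL@PDA and 0 with PVDF@PDA, 0 were lower, and the medians were 0.05 and 0.10. This was Tcirg1, the a3 subunit known from osteoclasts and secretory lysosomes, with 14.3 and 16.1 CPM under PVDF@PDA, 18.6 and 19.8 under PCL@PDA, and 12.4 and 13.3 in Control. With PCL@PDA it was higher by 0.58 ± 0.13 (adjusted p = 0.000748) and stood at 0.24 ± 0.13 with PVDF@PDA (adjusted p = 0.218). Of 4 cathepsin inhibitors (medians 0.03 and 0.12) 1 was higher with PCL@PDA, the secreted cystatin Cst3, by 0.30 ± 0.070 (adjusted p = 0.00122; 0.0666 without Control replicate 1), with 0.17 for PVDF@PDA (adjusted p = 0.0914).

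Of 20 genes for sorting to lysosomes 5 were higher and 1 lower with PVDF@PDA, and 6 higher and 0 lower with PCL@PDA, with medians of 0.05 and 0.12. Gga2, a clathrin adaptor that binds mannose 6-phosphate receptors, had 45.5 and 43.1 CPM under PVDF@PDA, 46.6 and 48.5 under PCL@PDA, and 35.9 and 32.2 in Control. It was higher by 0.38 ± 0.087 (adjusted p = 0.0013; 0.079 without Control replicate 3) and 0.48 ± 0.087 (adjusted p = 3.32e-05). Sort1, the sorting receptor sortilin, was higher by 0.41 and 0.36 (adjusted p = 0.000165 and 0.000815), and Lrp1, a large endocytic receptor, by 0.22 with PCL@PDA (adjusted p = 0.00126), with 0.14 for PVDF@PDA (adjusted p = 0.0508, or 0.0059 with batch as a block). The lower gene with PVDF@PDA was Sumf1, which activates sulphatases, at -0.35 ± 0.12 (adjusted p = 0.0317), a call that ended under scaling by library totals (0.062) and without any 1 of the 4 libraries compared (0.096, 0.217, 0.15 and 0.113).

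Among 19 regulators of lysosomal genes and of mTORC1 docking, 1 was higher with PVDF@PDA and 1 lower with PCL@PDA, with medians of 0.02 and -0.01. With batch as a block 1 was higher and 1 lower with PVDF@PDA, and 2 were higher and 1 lower with PCL@PDA. Of the E-box factors, Tfe3 had 59.1 and 56.6 CPM under PVDF@PDA, 56.8 and 53.4 under PCL@PDA, and 66.0 and 66.7 in Control, so every library with a material lay below Control. It was lower with PCL@PDA, at -0.27 ± 0.075 (adjusted p = 0.00716), a call that ended with either Control library left out (0.0541 for replicate 1, 0.0587 for replicate 3), and for PVDF@PDA the difference of -0.20 ± 0.075 had an adjusted p of 0.0613, or 0.0378 with batch as a block. Tfeb had 3.86 and 3.50 CPM under PVDF@PDA, 4.17 and 4.79 under PCL@PDA, and 4.26 and 3.01 in Control, and Mitf had 3.16 and 2.86 CPM under PVDF@PDA, 2.66 and 3.56 under PCL@PDA, and 2.16 and 3.16 in Control. Their levels overlapped between the materials and Control, and neither passed, with differences of 0.02 and 0.30 for Tfeb and 0.18 and 0.23 for Mitf. The higher regulator with PVDF@PDA was Rragd, a Rag GTPase that docks mTORC1 at lysosomes, with 5.19 and 5.37 CPM under PVDF@PDA, 5.01 and 4.12 under PCL@PDA, and 2.28 and 3.56 in Control. The transcript was higher by 0.85 ± 0.25 (adjusted p = 0.0111; 0.0714 without PVDF@PDA replicate 3 and 0.245 without Control replicate 1), and with PCL@PDA it was at 0.64 ± 0.25 (adjusted p = 0.0579, or 0.034 with batch as a block).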

How the data were processed

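Bulk RNA-seq of 6 RSC96 libraries in 3 groups was read from the deposited table of raw counts per gene. The deposited FPKM files, 1 per library, hold the same genes, and for all 15690 genes with reads in at least 2 libraries FPKM and count implied 1 gene length within a tolerance of 1e-05. The submitters' processing notes name DESeq2 1.4.5 and the build mRatBN7.2. The sources used here give no aligner, counter, annotation or strand setting. No row was without a gene name, and 0 per-sample columns were left unmapped.

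The 3 comparisons were fitted in 1 model over all 6 libraries, so that they share 1 estimate of the spread, with edgeR 4.0.16 (R 4.3.3), TMM scaling, filterByExpr and robust quasi-likelihood fits with 3 residual degrees of freedom. The filter kept 13018 of 16849 genes and removed 3831. P-values are 2-sided and Benjamini-Hochberg adjusted over all genes tested, with a threshold of 0.05. FPKM were used for levels between genes and, in limma 3.58.1, for alternatives on log2(FPKM + 1) and log2(FPKM + 0.1), with or without a minimum mean of 0.5 FPKM. DESeq2 1.42.0, other scalings, no filter, a non-robust fit, a fit of only the 4 libraries compared, a replicate block and leaving out each library in turn were the other alternatives. Library totals ran from 32760123 to 35389307 counts. The scripts' test was checked on simulated data.

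The labels tie replicate number to batch, and this is where the pairing comes from. The deviations of same-numbered libraries from their group means correlated, across genes, with r = -0.0044 between the material groups, 0.05 between PVDF@PDA and Control, and 0.14 between PCL@PDA and Control.

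The 49 genes and all lists were chosen with earlier results of these data known. The text names the 12 genes with the smallest p per comparison, the leading gene of each of 5 role groups, up to 3 genes per further list, and Tfeb, Tfe3 and Mitf. Other called genes (Laptm4a, Gusb, Psap, Atp6ap2, Atp6v1d), those called only with the block, Sumf1 and Plbd2 were named after their values were seen. Of 210 listed genes 198 were in the table. Gene IDs, overlaps and promoters come from RefSeq (GRCr8), and no coordinates of the authors' build were used. Some genes that this rule names are not reported here.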

Additional observations from a re-analysis of the deposited data

How the results depend on the processing

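Over 16 alternatives none of the named genes called against Control, and none of the 12 genes with the smallest p between the materials, turned its direction in that comparison. Among the 48 tested lysosomal genes, direction did turn in at least 1 alternative for 9 of the 35 that did not pass with PVDF@PDA, 14 of the 27 that did not pass with PCL@PDA and 14 of 48 between the materials, with 0 of the turned values past the threshold. With PVDF@PDA, Atp6v0c went from 0.01 to -0.01 without PVDF@PDA replicate 3, Tfeb from 0.02 to -0.05 without PVDF@PDA replicate 1 and -0.22 without Control replicate 3, and Mitf from 0.18 to -0.07 without Control replicate 1. With PCL@PDA, Mitf went from 0.23 to between -0.022 and -0.0035 without PCL@PDA replicate 3 or Control replicate 1. Of the values for the named called genes and those 12, 447 kept their side of the threshold and 97 lost it for PCL@PDA against Control, 249 kept and 87 lost it for PVDF@PDA against Control, and 185 kept it and 7 gained a call between the materials. All 16 held for Atp6v1a, Ctsb, Lamp1 and Mcoln1 with PCL@PDA and for Atp6v1a with PVDF@PDA. Between the materials, 8 genes of all tested became 5 with DESeq2, 5 with library totals alone, 17 with no filter, 59 with the replicate block and 0 with limma at either pseudocount or without a filter (877, 871 and 1174 at an unadjusted p below 0.05), and 0 to 827 with 1 library left out. Of the 48 lysosomal genes, 0 became 1 with the replicate block and 0 to 6 with 1 library left out, and their median of -0.048 then ran from -0.088 to -0.0063. For PVDF@PDA against Control, 2042 genes became 1133 and 1129 with limma at pseudocounts of 1 and 0.1, 270 without a filter, and 1031 to 2869 with 1 library left out. The 13 lysosomal genes became 8, 8 and 2 in those limma fits and 2 to 18 with 1 library left out (2 without Control replicate 1, 5 without Control replicate 3 or PVDF@PDA replicate 3, 6 without PVDF@PDA replicate 1), 11 with DESeq2 and 18 with the replicate block. Their median of 0.10 became 0.136 with library totals alone and 0.133, 0.136 and 0.133 with limma. For PCL@PDA against Control, 2616 genes became 1609, 1597 and 474 with limma and 1346 to 3173 with 1 library left out. The 21 lysosomal genes became 4 with limma without a filter and 7 to 26 with 1 library left out (7 without Control replicate 1, 14 without Control replicate 3 or PCL@PDA replicate 3), 22 with DESeq2 and 24 with the replicate block. Their median of 0.14 became 0.182 with library totals alone, 0.173, 0.181 and 0.173 with limma, and 0.112 to 0.191 with 1 library left out. These totals can include genes not called in the main fit, so they are not numbers of calls kept. With DESeq2, for PCL@PDA against Control, 19 of the 21 calls were kept and 3 were added. Calls with PCL@PDA that ended without PCL@PDA replicate 3 are named with their genes above. A fit with 1 library left out assumes that the lone library varies like the other groups. The cause of these shifts was not tested. Depth limited Ctsf, which had 1 to 6 counts per library and was not tested in the count fits with a filter.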
